A study of Mus musculus with 6 samples.

Results

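Heat shock and unfolded protein response genes were examined in the spinal cord of mice lacking Nogo-A, a myelin-associated inhibitor of axon growth. The gene group was defined by name as 35 genes of cytosolic, mitochondrial and endoplasmic reticulum (ER) protein folding, and every probe set annotated to one of them was a member. Of the 35 genes, 33 had a probe set, which gave 82 of the 45037 probe sets that are not controls on the array. Hsf1 and Hsp90ab1 had none in the annotation and are not analysed here. A filter on dim signals left 65 of these 82 probe sets and 32 of the 33 genes, out of 23546 tested probe sets in all. Trib3, with 2 dim probe sets, did not pass it. Of the 65, 64 reached the filter in both genotypes and 1, the dimmer of Edem1, in Nogo-A KO alone. A single probe set, tested, measured Bag3, Dnajb9, Hspa1a, Hspd1, P4hb and Sdf2l1. Both probe sets were tested in Dnajb1, Edem1, Herpud1, Hsp90b1, Hspb1, Hspe1, Hsph1 and Pdia3, and 1 of 2 in Ddit3, Pdia4 and Pdia6. All 3 were tested in Calr, Canx, Dnaja1, Hspa1b, Hspa5 and Hspb8, 2 of 3 in Atf4, Atf6 and Cryab, and 1 of 3 in Eif2ak3. All 4 were tested in Hspa8 and Xbp1, 3 of 4 in Hspa4, 3 of 5 in Hsp90aa1 and 1 of 5 in Ern1.

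The series compared 3 Nogo-A KO mice with 3 wild type mice. All 6 were untreated C57Bl/6 males aged 4 months, and the whole spinal cord of each was measured on 1 Affymetrix Mouse 430 2.0 array. The labels name the knockout and its strain but do not describe the deleted segment, the number of founder lines or littermates. Intensities below are those deposited by the authors, on a linear scale, and arrays are listed as replicates 1, 2 and 3 of each genotype.

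Chaperones bind unfolded proteins and help them to fold. Heat or damaged protein in the cytosol frees the transcription factor HSF1, which switches on Hsp70, Hsp90, Hsp110 and small heat shock genes through heat shock elements in their promoters. Unfolded protein in the ER is sensed by IRE1, PERK and ATF6, which raise ER chaperones through XBP1 and ATF6 and amino acid and death-related genes through ATF4 and CHOP. The reticulons, to which Nogo-A belongs, are themselves membrane proteins that shape ER tubules.

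Promoters of 8 members that hold a heat shock or ER stress element are shown, so that the genes described below can be placed by it. RefSeq promoter windows of build GRCm38.p6, from 250 bases before to 50 bases after a start site, were found for 29 of the 35 genes, in 34 windows. Each line gives the strand of the gene, 5′ to 3′. Capitals mark the heat shock element, searched as GAANNTTC or TTCNNGAA, in the first 4 lines. In Hspa5, Hsp90b1 and Calr they mark the ER stress response element, searched as CCAAT and CCACG with 9 bases of any kind between them, and in Herpud1 its second form, ATTGG and CCACG with 1 base between them. Both strands were searched.
Hspa1a, chr17:34972107-34972406, minus strand: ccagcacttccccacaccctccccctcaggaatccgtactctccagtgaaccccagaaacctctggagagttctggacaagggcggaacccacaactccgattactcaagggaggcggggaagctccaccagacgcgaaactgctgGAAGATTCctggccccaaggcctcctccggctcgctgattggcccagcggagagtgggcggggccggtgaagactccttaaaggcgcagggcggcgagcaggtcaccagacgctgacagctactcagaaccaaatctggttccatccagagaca
Hspa1b, chr17:34959189-34959488, minus strand: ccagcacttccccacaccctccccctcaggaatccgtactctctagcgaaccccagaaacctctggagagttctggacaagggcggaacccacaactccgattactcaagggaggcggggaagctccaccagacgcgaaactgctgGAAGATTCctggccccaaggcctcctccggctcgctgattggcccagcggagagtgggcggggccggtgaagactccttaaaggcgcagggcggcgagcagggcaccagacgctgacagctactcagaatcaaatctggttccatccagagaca
Hsph1, chr5:149636287-149636586, minus strand: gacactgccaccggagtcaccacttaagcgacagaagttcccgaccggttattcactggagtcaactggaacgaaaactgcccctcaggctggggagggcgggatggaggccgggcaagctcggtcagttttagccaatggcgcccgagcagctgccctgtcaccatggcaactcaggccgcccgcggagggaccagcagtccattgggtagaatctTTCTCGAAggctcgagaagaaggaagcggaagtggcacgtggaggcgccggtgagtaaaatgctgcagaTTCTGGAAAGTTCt
Hspb1, chr5:135887669-135887968, plus strand: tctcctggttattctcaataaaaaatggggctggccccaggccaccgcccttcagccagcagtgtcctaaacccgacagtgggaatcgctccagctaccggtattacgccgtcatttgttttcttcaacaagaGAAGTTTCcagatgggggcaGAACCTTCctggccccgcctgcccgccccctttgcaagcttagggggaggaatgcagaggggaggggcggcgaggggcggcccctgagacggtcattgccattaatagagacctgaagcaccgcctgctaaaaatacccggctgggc
Hspa5, chr2:34771840-34772139, plus strand: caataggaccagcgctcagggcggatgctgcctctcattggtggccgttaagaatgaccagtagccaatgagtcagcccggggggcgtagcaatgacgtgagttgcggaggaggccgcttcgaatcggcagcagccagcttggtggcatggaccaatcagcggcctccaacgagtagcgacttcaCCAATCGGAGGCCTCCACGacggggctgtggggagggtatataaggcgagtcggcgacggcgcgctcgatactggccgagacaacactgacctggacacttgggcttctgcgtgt
Hsp90b1, chr10:86705395-86705694, minus strand: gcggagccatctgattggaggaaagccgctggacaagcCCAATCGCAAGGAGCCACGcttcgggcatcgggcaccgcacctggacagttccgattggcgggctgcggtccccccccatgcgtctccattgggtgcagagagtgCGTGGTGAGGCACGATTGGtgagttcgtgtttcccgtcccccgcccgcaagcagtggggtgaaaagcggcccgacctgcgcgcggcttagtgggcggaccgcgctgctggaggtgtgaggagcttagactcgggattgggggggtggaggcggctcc
Calr, chr8:84846882-84847181, minus strand: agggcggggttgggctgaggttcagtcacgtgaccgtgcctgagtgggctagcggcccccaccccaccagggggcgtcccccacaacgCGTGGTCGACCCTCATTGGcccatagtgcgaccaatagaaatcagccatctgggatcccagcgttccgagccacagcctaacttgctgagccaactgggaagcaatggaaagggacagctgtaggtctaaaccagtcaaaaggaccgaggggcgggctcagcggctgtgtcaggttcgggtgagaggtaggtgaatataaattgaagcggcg
Herpud1, chr8:94386179-94386478, plus strand: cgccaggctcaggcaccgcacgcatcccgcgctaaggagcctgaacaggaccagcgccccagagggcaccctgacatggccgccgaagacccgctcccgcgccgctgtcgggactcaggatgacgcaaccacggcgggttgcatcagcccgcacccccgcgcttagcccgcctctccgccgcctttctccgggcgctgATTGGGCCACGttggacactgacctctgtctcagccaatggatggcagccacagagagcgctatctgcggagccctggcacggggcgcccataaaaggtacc

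The ER stress response element was present in the windows of 5 genes, Hspa5, Hsp90b1, Calr, Canx and Pdia6, and in 0.119% of all 32851 windows. Hsp90b1 held it 2 times, with first bases at positions -212 and -107 from the start site, and Hspa5 held it at -65. The second form was present in Herpud1 at -52 and in 0.0365% of all windows. The heat shock element is short, and 15.1% of all windows held it. Among the members 10 genes did, namely Hspa1a, Hspa1b, Hspb1, Hspb8, Hspd1, Hspe1, Hsph1, Dnaja1, Bag3 and Eif2ak3. Hspd1 and Hspe1 lie head to head, and the overlapping matches at -144, -139 and -134 in a window of Hspd1 are the same bases as those at -79, -84 and -89 in that of Hspe1. Hspa1a and Hspa1b share 98.7% of the bases of their windows position by position, and each holds the element at -104. The UPR element TGACGTGG was in none of the member windows and in 0.676% of all, and a core of the ATF4 element, TGATGNAAN, was in Herpud1 and Trib3 and in 3.95% of all. These matches describe letters and were not tested as binding sites.

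The knockout was checked at Rtn4, the gene of Nogo-A. Its probe set 1437224_at, 1 of 5, read 78.2, 9.17 and 5.08 in Nogo-A KO cords, against 3560.2, 2790.4 and 2802 in wild type cords, and it was the single probe set of 23546 with an adjusted p under 0.05 (limma, Benjamini-Hochberg adjusted p = 0.0149). The other 4 were higher in Nogo-A KO without overlap, with adjusted p of 0.537 to 0.591 in limma. The arrays differed in dim signals. Their median intensity was 144.1 to 149.3 on the Nogo-A KO arrays and 148.2, 169.5 and 195.6 on wild type replicates 1 to 3, and wild type replicate 3 correlated with the others at a mean r of 0.930 against 0.951 to 0.961. Markers of neurons, astrocytes, oligodendrocytes and microglia were above the dim-signal filter on these arrays, 27 of the 27 with a probe set, while of 5 motor neuron markers 2 were. Skeletal muscle markers were brightest on Nogo-A KO replicate 2 and, apart from Pvalb, in wild type on replicate 3. Their summed intensities over 11 genes were 7435, 26012 and 7211 in Nogo-A KO and 6774, 7837 and 13990.1 in wild type. Most of the lower sums was Pvalb, at 4870, 6349 and 4999 in Nogo-A KO and 5116, 5035 and 4866 in wild type. Acta1, without that share, read 657, 4593 and 536 in Nogo-A KO and 385, 754 and 2142 in wild type.

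No heat shock or unfolded protein response probe set passed an adjusted p of 0.05 in limma, against 0.00425% of all tested probe sets, and the group as a whole lay close to no change. The median log2 change of its 32 genes, each represented by the brightest of its tested probe sets on average over the 6 arrays, was -0.0057, and that of all tested probe sets was 0.0077. At an unadjusted p under 0.05, 5 of the 65 probe sets were higher in Nogo-A KO, or 7.69%, against 4.3% of all tested probe sets. Another 4 were lower, or 6.15%, against 3.98% of all. The values of the 3 and 3 arrays did not overlap in 6 probe sets with Nogo-A KO above (9.23%, against 7.84% of all) and in 4 with Nogo-A KO below (6.15%, against 6.62% of all). By the thresholds of the series' design (the methods' t-test at 0.05 and a 1.2-fold difference) 2 were higher, in Hspb8 and Cryab, or 3.08%, against 2.24% of all. Another 3 were lower, in Hspa4, Hsph1 and Hspa5, or 4.62%, against 2.59% of all. These shares, with all 6 arrays and the deposited scaling, lie near the background, and several of the probe sets measure the same gene. The higher ones belonged to Hspb1, Hspb8, Cryab and Calr, and the lower ones to Hspa4, Hspa1b, Hsph1 and Hspa5. Without wild type replicate 3 there were 5 higher, or 7.69%, against 6.53% of all probe sets then tested. Another 12 were lower, or 18.5%, against 5.33% of all, a share above the background. Without wild type replicate 2 there were 1 higher and 2 lower, or 1.54% and 3.08%, against 3.27% and 2.48%. At an adjusted p under 0.05 the array of wild type replicate 3 decided 1 member probe set, of Hspa4, which passed without it, beside 0.00437% of all probe sets higher and 0.00874% lower. Without that array and Nogo-A KO replicate 2 together, 5 were higher at an unadjusted p, or 7.69%, against 7.51% of all. Another 11 were lower, or 16.9%, against 6.63% of all. The same Hspa4 probe set passed the adjusted threshold, beside 0.0045% higher and 0.009% lower of all.

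**Figure D1:**
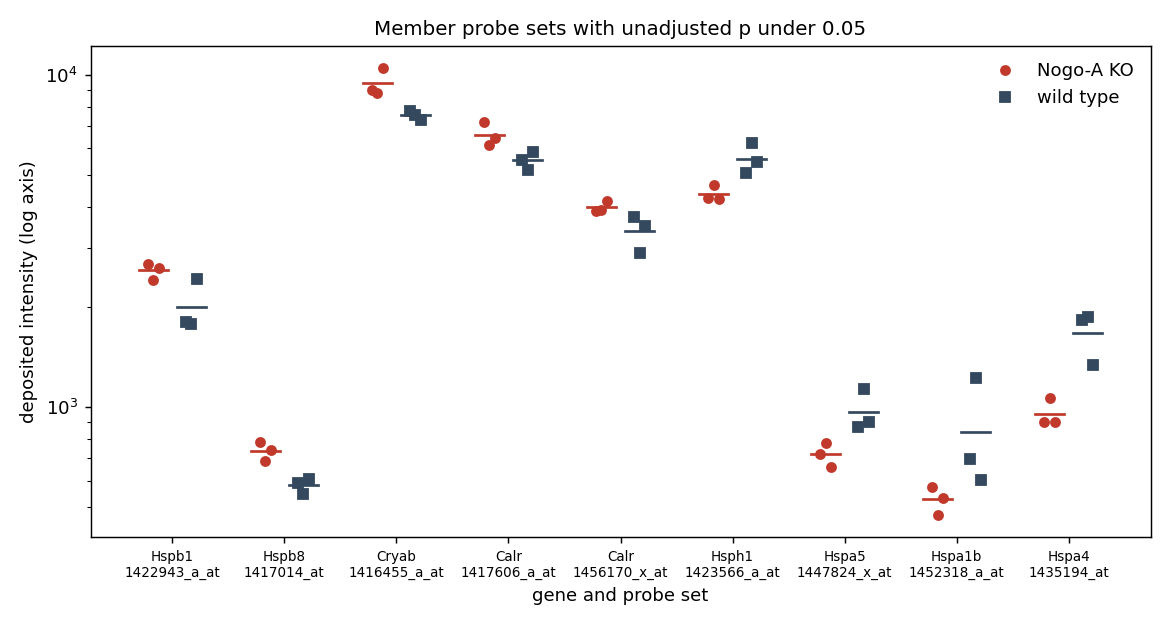
Deposited intensity on a log axis for the 9 member probe sets with an unadjusted p under 0.05 in limma, with 1 point per array and a line at each mean, for Nogo-A KO (circles) and wild type (squares). The groups overlap in Hspb1, where wild type replicate 3 read 2418, and do not overlap in the other 8.

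The small heat shock proteins are chaperones that hold unfolding proteins without using ATP. All 7 of their tested probe sets, from 3 genes, had a log2 change above 0, as did 51.4% of all tested probe sets, and 6 of 7 did after quantile normalization, where the brighter Cryab probe set was at -0.024. Hspb1, which encodes the Hsp27-type small chaperone of neurons and glia, read 2694, 2409.9 and 2625 in Nogo-A KO cords, against 1805, 1773 and 2418 in wild type cords. Nogo-A KO replicate 2, at 2409.9, lay just under wild type replicate 3, while the other wild type arrays were well below. The fold was 1.30 (95% interval 1.07 to 1.59) with an unadjusted p of 0.0139 and an adjusted p of 0.591 in limma. Its second probe set averaged 1519.8 ± 126 in Nogo-A KO and 1298 ± 142 in wild type (SD, n = 3 each), 1.17-fold.

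Cryab encodes alphaB-crystallin, a small heat shock protein abundant in oligodendrocytes and muscle, and its probe sets differed. The dimmer of its 2 tested probe sets, 1416455_a_at, read 8993, 8818 and 10446 in Nogo-A KO cords, against 7766, 7558 and 7323 in wild type cords, with no overlap. Its fold was 1.24 (95% interval 1.08 to 1.43), with an unadjusted p of 0.0056 (limma adjusted p = 0.591). The brighter probe set read 11025, 12062 and 10076 in Nogo-A KO and 11454, 11989.7 and 8249 in wild type, and these overlapped, with wild type replicate 3 the lowest of all. Its fold was 1.06 (95% interval 0.861 to 1.30), and without wild type replicate 3 its log2 change was -0.088 against 0.081 with all arrays.

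Hspb8, a partner of the cochaperone Bag3 in the removal of misfolded protein, had 3 tested probe sets. The probe set 1417014_at read 782, 686 and 741 in Nogo-A KO cords, against 589, 547 and 607 in wild type cords, with no overlap and a fold of 1.27 (unadjusted p = 0.0255, limma adjusted p = 0.595). The brightest, which represents the gene, read 996, 1127 and 1126 in Nogo-A KO and 968, 874 and 1165 in wild type, and the groups overlapped at 1.09-fold. Bag3 itself averaged 477 ± 54.8 in Nogo-A KO and 523 ± 111 in wild type (SD, n = 3 each), 0.921-fold (95% interval 0.697 to 1.22).

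These 4 genes are also expressed in skeletal muscle, whose markers other than Pvalb were brightest on Nogo-A KO replicate 2 and, in wild type, on replicate 3. Among the Nogo-A KO arrays, replicate 2 was the lowest for Hspb1, Bag3, Cryab probe set 1416455_a_at and Hspb8 probe set 1417014_at, and the highest for the brighter Cryab probe set and both other probe sets of Hspb8. Without Nogo-A KO replicate 2 and wild type replicate 3 together, the log2 change was 0.57 in Hspb1, 0.34 and -0.15 in Cryab at its dimmer and brighter probe set, 0.42 and 0.20 in Hspb8 at probe set 1417014_at and its brightest one, and 0.096 in Bag3. With all arrays these were 0.38 in Hspb1, 0.32 and 0.081 in Cryab, 0.34 and 0.12 in Hspb8, and -0.12 in Bag3. The part of muscle was not tested. Myelin and oligodendrocyte markers were brighter in Nogo-A KO, with summed intensities over 7 genes of 122323, 121946 and 134973 in Nogo-A KO against 106564, 110512 and 106696 in wild type. All 7 were above the dim-signal filter and 5 had a log2 change above 0. Schwann cell markers (3 of 3 above 0) summed to 16519 to 23032 in Nogo-A KO and 13569 to 16056 in wild type, and meningeal and fibroblast markers (5 of 6 above 0) to 11848 to 13515 in Nogo-A KO and 9412 to 11469 in wild type. Of the neuron markers 7 of 7 were above 0, with a median log2 change of 0.18 and summed intensities of 106766 to 110115 in Nogo-A KO and 89008 to 107608 in wild type. Of the microglia markers 1 of 6 was above 0, with a median of -0.13 and sums of 8667 to 9861 in Nogo-A KO and 8893 to 11706 in wild type. Astrocyte markers were above 0 in 5 of 7, with a median of 0.057, and ranged from Aqp4 at -0.22 to Gfap at 0.57. Their sums were 64147 to 66459 in Nogo-A KO and 57690 to 65970 in wild type. The part of these cell types in the values of the small heat shock genes and of Calr was not tested, and in whole cord fewer cells of a type cannot be told apart from less RNA per cell.

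Probe sets of the inducible Hsp70 pair and of Hsph1 had log2 changes below 0 in Nogo-A KO, 6 of 6 with the deposited scaling, while with array median scaling 1 of 4 for the pair and 1 of 2 for Hsph1 were above 0. They belong to 7 members listed as inducible by HSF1, which did not share 1 direction. At the representative probe sets 3 of the 7, Hspb1, Dnajb1 and Hsp90aa1, were above 0, and the median was -0.12. At an unadjusted p under 0.05 in limma, 1 of the 7 was higher and 1 lower. Most member probe sets lay below 0 with the deposited scaling. Of the 65, 26 were above 0, or 40%, against 51.4% of all tested probe sets. Hspa1a and Hspa1b are neighbouring, nearly identical genes for the Hsp70 that cells make on heat shock, so a probe set named for one can read both. The brightest probe set of Hspa1b read 574, 473 and 532 in Nogo-A KO cords, against 698, 1219.6 and 604 in wild type cords. All 3 Nogo-A KO values lay below the wild type ones, and wild type replicate 2 stood apart from the other wild type arrays. The fold was 0.655 (95% interval 0.462 to 0.929), with an unadjusted p of 0.0219 and an adjusted p of 0.595 in limma. Without wild type replicate 2 the log2 change was -0.31 with an unadjusted p of 0.105 in limma, against -0.61 with all arrays.

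Its other probe sets gave smaller values. The probe set 1427127_x_at read 511, 375 and 661 in Nogo-A KO and 473, 821 and 578 in wild type, and 1427126_at read 249, 264 and 408 in Nogo-A KO and 281, 541 and 261 in wild type. Hspa1a read 355, 461 and 396 in Nogo-A KO cords and 327, 667 and 515 in wild type cords, 0.833-fold (95% interval 0.576 to 1.20). Wild type replicate 2 was the highest array in all 4 probe sets of the pair, and the groups overlapped in each except the brightest of Hspa1b.

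Hsph1, the Hsp110 that resets Hsp70 by exchanging its nucleotide, had 2 probe sets with the same direction. The dimmer read 4248, 4646 and 4221 in Nogo-A KO cords, against 5047, 6216 and 5450.1 in wild type cords, with no overlap. The fold was 0.787 (95% interval 0.674 to 0.919), with an unadjusted p of 0.00577 and an adjusted p of 0.591 in limma. The brighter read 6312, 5782 and 6846 in Nogo-A KO and 6709, 7319 and 7162 in wild type, which overlapped, at 0.892-fold. Wild type replicate 2 was the highest array at both.

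Hspa4, another protein of the Hsp110 family, held the smallest p of the group, at 1 probe set of 3. The probe set 1435194_at read 899.6, 1060.4 and 898 in Nogo-A KO cords, against 1819, 1859 and 1332 in wild type cords, and even the lowest wild type array was above every Nogo-A KO array. Its fold was 0.575 (95% interval 0.459 to 0.721) with an unadjusted p of 0.000211, and over all tested probe sets the adjusted p was 0.551 in limma. Without wild type replicate 3 the log2 change was -0.95 and the adjusted p 0.0379 in limma, and without that array and Nogo-A KO replicate 2 they were -1.03 and 0.0385. The brighter probe set of Hspa4 did not follow it, with 1488, 1705 and 1648 in Nogo-A KO and 1551, 1629 and 1352 in wild type, 1.07-fold (95% interval 0.896 to 1.28). The dimmest tested one averaged 442 ± 53.1 and 469 ± 143 in Nogo-A KO and wild type (SD, n = 3 each). Where in the transcript each probe set binds was not examined.

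Hspa8, the Hsc70 that cells make at all times, was spread between its probe sets. The brightest read 35904, 36032 and 36509 in Nogo-A KO cords and 36559.6, 30699.5 and 28257 in wild type cords, 1.14-fold (95% interval 0.984 to 1.33), and the next read 23519, 22837 and 25794 in Nogo-A KO and 22610.2, 22168 and 21096 in wild type, without overlap (unadjusted p = 0.142 in limma). Another, 1420622_a_at, read 7025, 6339 and 5435 in Nogo-A KO and 8009, 12596 and 5347 in wild type. On this one wild type replicate 2 was far above all other arrays, while on the 2 brightest it lay below every Nogo-A KO array. The dimmest averaged 270.1 ± 33.6 in Nogo-A KO and 301 ± 64.4 in wild type (SD, n = 3 each).

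Hsp90aa1, the inducible cytosolic Hsp90, did not pass the test at any probe set. Its brightest probe set read 20331, 20978 and 21412 in Nogo-A KO cords and 21370.5, 20519 and 18416 in wild type cords, 1.04-fold (95% interval 0.916 to 1.19). A second, 1438902_a_at, averaged 18308 ± 1209 and 20059 ± 5061 in Nogo-A KO and wild type (SD, n = 3 each), and wild type replicate 2 was highest there at 24957. The J-domain cochaperones, which bring substrates to Hsp70, also lay near 1. Dnaja1 was 0.993-fold (95% interval 0.877 to 1.13) and Dnajb1 1.09-fold (95% interval 0.924 to 1.28). A shared-transcript probe set of Dnaja1, 1459835_s_at, read 3643, 3575 and 2845 in Nogo-A KO and 4706, 5731 and 2896 in wild type, with wild type replicate 2 again the highest.

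The mitochondrial chaperonin pair did not pass the test at any of 3 probe sets. Hspd1, which encodes Hsp60, read 6488, 6387 and 6332 in Nogo-A KO cords and 6580.0, 6418 and 6237 in wild type cords, 0.999-fold (95% interval 0.882 to 1.13). Its cap protein gene Hspe1 averaged 4073 ± 178 in Nogo-A KO and 4309 ± 100.2 in wild type (SD, n = 3 each), 0.945-fold (95% interval 0.827 to 1.08). Its dimmer probe set spread more in wild type, with 1113, 1246 and 1088 in Nogo-A KO and 1109.8, 1369 and 1509 in wild type, 0.87-fold (95% interval 0.707 to 1.07).

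**Figure D2:**
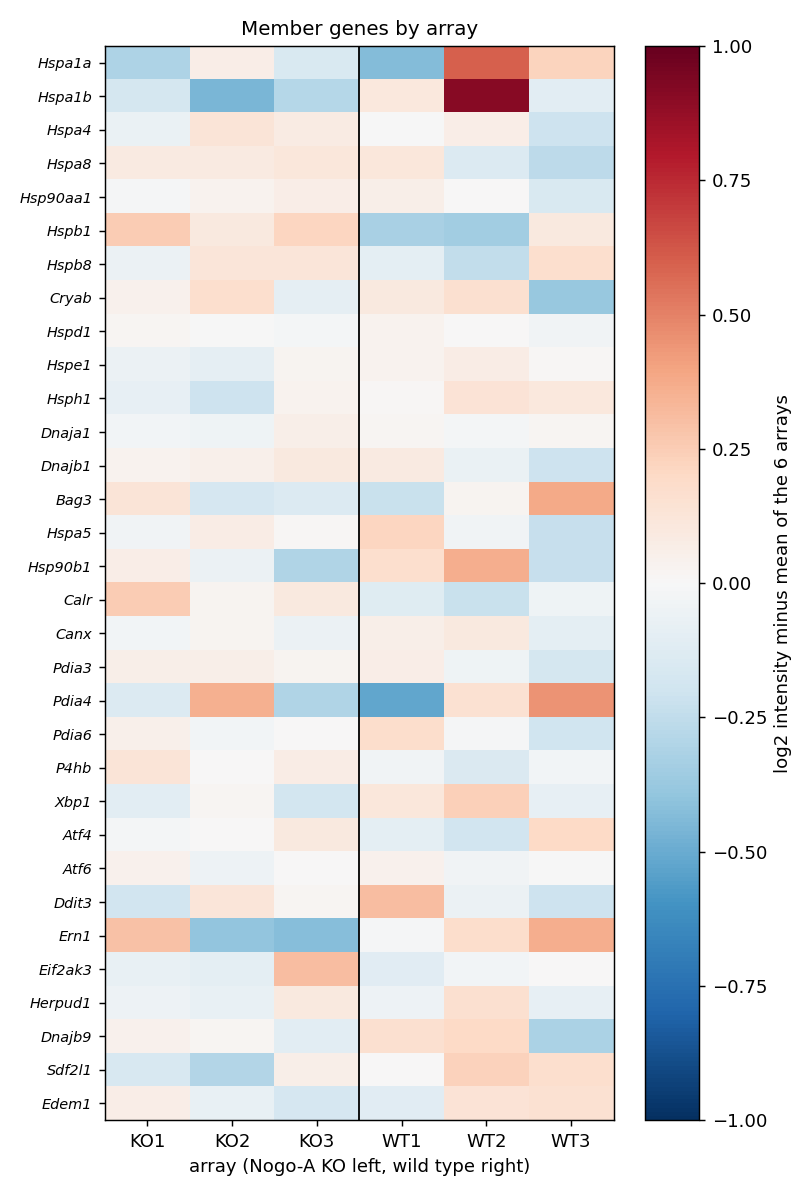
Log2 intensity of the 32 tested member genes, each at its representative probe set, minus the mean of that gene over the 6 arrays, with Nogo-A KO arrays (KO1 to KO3) left and wild type arrays (WT1 to WT3) right. Hspa1a and Hspa1b are darkest on wild type replicate 2, at intensities of 667 and 1219.6, and Hspd1, Dnaja1 and Atf6 are pale on all arrays.

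Wild type replicate 2 was the highest array for 23 of the 65 member probe sets, or 35.4%, and for 18% of all tested probe sets. It was the lowest for 9, or 13.8%, against 17.9% of all. At the probe sets that represent the 32 genes it was highest for 10, which were Hspa1a, Hspa1b, Hsph1, Hspe1, Hsp90b1, Canx, Xbp1, Herpud1, Dnajb9 and Sdf2l1, and lowest for 5, which were Hspb1, Hspb8, Calr, P4hb and Atf4. Over the 12 cytosolic heat shock genes its median deviation from the mean of the 6 arrays was 0.014 on the log2 scale. Wild type replicate 3 held the lowest value in 26 of the 65, or 40%, and in 28.5% of all. Spread within wild type exceeded that within Nogo-A KO in 23 of the 32 genes, or 71.9%, and in 68% of all tested probe sets. The median SD of log2 intensity in these genes was 0.097 in Nogo-A KO and 0.16 in wild type. No label records time of day, handling or order of dissection for single animals, and the part of such differences was not tested.

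ER chaperones and oxidoreductases, 10 genes, had a median log2 change of -0.0047, and 5 of the 10 were above 0. Calr was above 0 at all 3 of its probe sets. It encodes calreticulin, a lectin chaperone of the ER lumen that also buffers calcium, and its brightest probe set read 7186, 6142 and 6431 in Nogo-A KO cords, against 5539, 5164 and 5849.7 in wild type cords. Every Nogo-A KO array was above every wild type array. The fold was 1.19 (95% interval 1.03 to 1.38), with an unadjusted p of 0.022 and an adjusted p of 0.595 in limma.

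A second Calr probe set, 1456170_x_at, read 3893, 3902 and 4155 in Nogo-A KO and 3734, 2905 and 3489 in wild type, also without overlap, at 1.19-fold (unadjusted p = 0.0453 in limma). The dimmest averaged 3310.0 ± 280.3 in Nogo-A KO and 2908 ± 327 in wild type (SD, n = 3 each), 1.14-fold. Canx, the membrane-bound relative of calreticulin, read 7807, 8087 and 7652 in Nogo-A KO cords and 8304, 8499.6 and 7429.6 in wild type cords, and at 0.973-fold (95% interval 0.851 to 1.11) the groups overlapped.

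Hspa5 encodes BiP, the Hsp70 of the ER and the standard readout of the unfolded protein response. Its brightest probe set read 8698, 9378 and 8955 in Nogo-A KO cords and 10304, 8662 and 7569 in wild type cords. The wild type values lay on both sides of the Nogo-A KO values, and the fold was 1.03 (95% interval 0.866 to 1.22). Its dimmest probe set, 1447824_x_at, read 722, 777 and 659.6 in Nogo-A KO and 871, 1129 and 898 in wild type, with no overlap and a fold of 0.748 (unadjusted p = 0.0133, limma adjusted p = 0.591). The name of this probe set ends in _x_at, which Affymetrix uses where probes may also bind other transcripts. The same ending is on 9 tested member probe sets, 3 of them lower in Nogo-A KO, with a median log2 change of 0.19. Calr 1456170_x_at and 1433806_x_at and the brightest of Hspa8 are among them. The ending _s_at, for shared transcripts, is on 6 tested member probe sets. With the deposited scaling 6 of the 6 were lower in Nogo-A KO, with a median log2 change of -0.095. They include the probe sets that represent Xbp1, Canx and Hspe1. The remaining probe set of Hspa5, 1427464_s_at, is another and averaged 3778 ± 90.9 in Nogo-A KO and 4117 ± 928 in wild type (SD, n = 3 each).

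Hsp90b1, the ER Hsp90 known as GRP94, read 5279.9, 4842 and 4084 in Nogo-A KO cords and 5656, 6489 and 4286 in wild type cords, 0.872-fold (95% interval 0.695 to 1.09), and overlapped. Its second probe set was 0.935-fold. The disulfide isomerases lay near 1, with Pdia3 at 1.07-fold (95% interval 0.932 to 1.23), Pdia6 at 1.02-fold (95% interval 0.848 to 1.22) and Pdia4, which varied widely between animals, at 0.963-fold (95% interval 0.666 to 1.39). P4hb, the founding protein disulfide isomerase, read 3303, 3020.3 and 3176 in Nogo-A KO and 2936, 2729 and 2949.6 in wild type. These did not overlap, but the difference of 1.10-fold had an unadjusted p of 0.16 in limma. Dnajb9, a BiP cochaperone under XBP1, was 0.979-fold (95% interval 0.798 to 1.20), and its groups overlapped. Sdf2l1, part of a BiP complex, read 501, 456 and 585 in Nogo-A KO cords and 561, 658 and 628 in wild type cords, 0.832-fold (95% interval 0.66 to 1.05), with overlap.

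**Figure D3:**
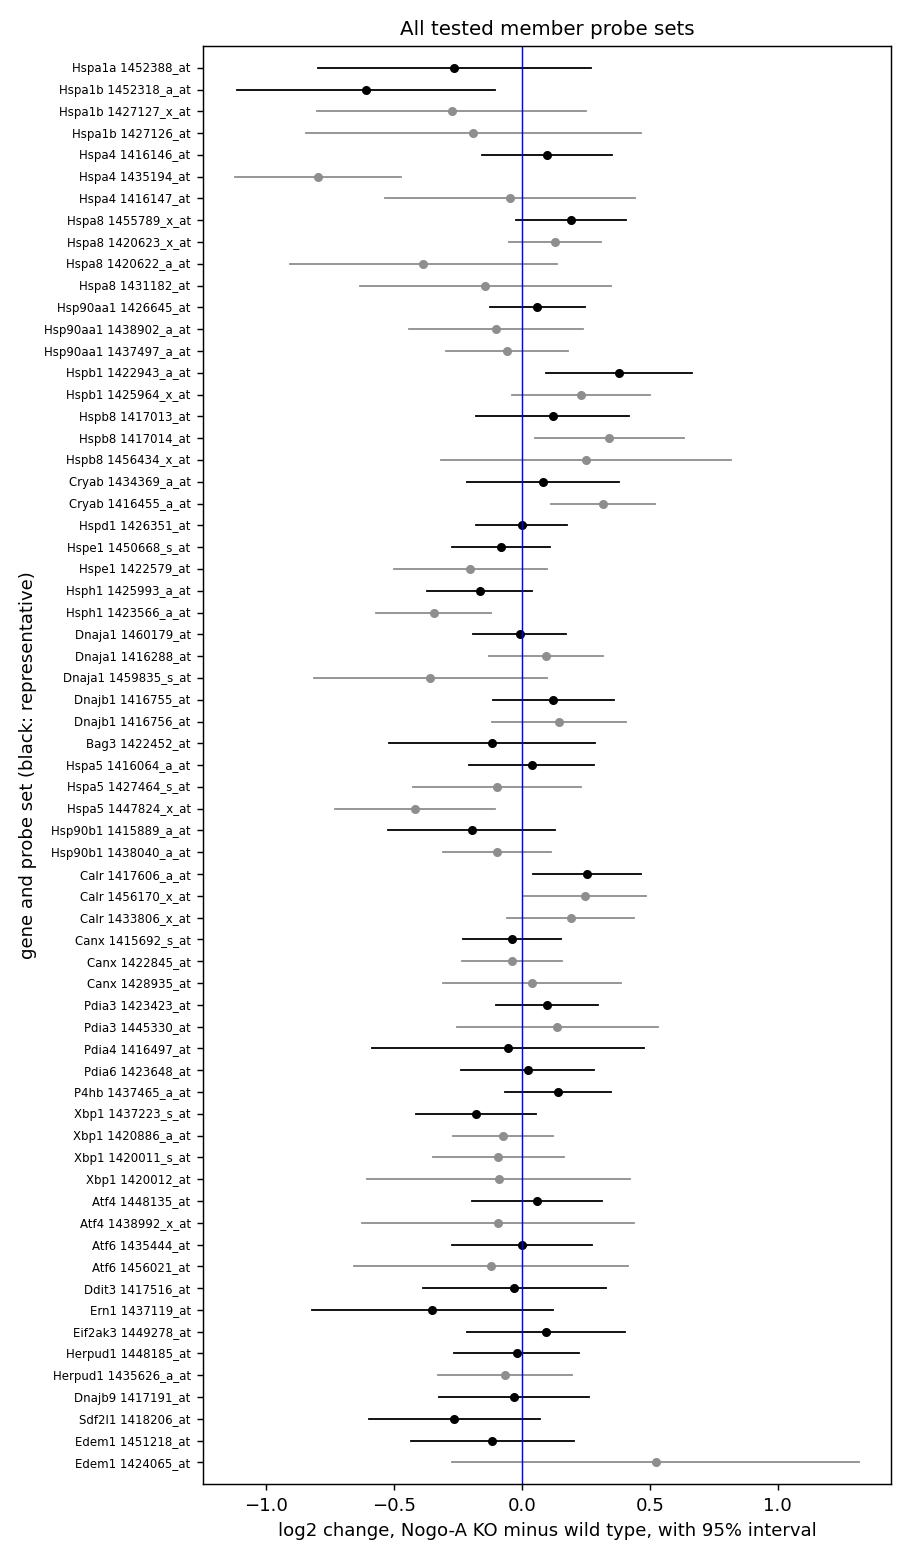
Log2 change, Nogo-A KO minus wild type, of the 65 tested member probe sets in limma, with 95% intervals, in black for the probe set that represents a gene and in grey for its others. Hspa4 probe set 1435194_at lies lowest at -0.80 while the representative of the same gene lies at 0.097.

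None of the 3 sensors of ER stress and their transcription factors, 6 genes, had an unadjusted p under 0.05 at the probe set that represents it. Atf6, the sensor that is cut in the Golgi to release a transcription factor, read 711, 669 and 693 in Nogo-A KO cords and 710.0, 673 and 690.2 in wild type cords, 1.00-fold (95% interval 0.826 to 1.21). Eif2ak3, which encodes the kinase PERK, read 849.6, 839 and 1111 in Nogo-A KO and 826, 878 and 899 in wild type, 1.07-fold (95% interval 0.861 to 1.32). Ern1, which encodes the nuclease IRE1, read 529.7, 329.5 and 321 in Nogo-A KO and 429, 489 and 555 in wild type. On Ern1, Nogo-A KO replicates 2 and 3 lay under every wild type array and replicate 1 did not, at 0.784-fold (95% interval 0.566 to 1.09).

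Xbp1, whose messenger RNA IRE1 splices, read 4285, 4678 and 4068 in Nogo-A KO cords and 4994, 5455 and 4361 in wild type cords at its brightest probe set, 0.882-fold (95% interval 0.75 to 1.04). All 4 of its probe sets had a log2 change below 0, between -0.18 and -0.074, but 4 of 4 were above 0 with array median scaling and 1 of 4 after quantile normalization. The arrays do not separate spliced from unspliced message. Atf4, which is controlled mainly at translation, read 2673, 2709.8 and 2901 in Nogo-A KO and 2527, 2370.0 and 3106 in wild type, 1.04-fold (95% interval 0.873 to 1.24). Ddit3, which encodes the death-related factor CHOP, read 633, 786 and 732 in Nogo-A KO and 895, 693 and 625 in wild type. The groups overlapped in both genes, and Ddit3 was 0.98-fold (95% interval 0.765 to 1.25).

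Genes that act downstream of the sensors did not pass the test either. Herpud1, which serves the removal of ER proteins and carries the second form of the element shown above, read 1801, 1772 and 1994 in Nogo-A KO cords and 1802, 2087 and 1765 in wild type cords, 0.986-fold (95% interval 0.833 to 1.17). Edem1, a lectin of the same removal route, was 0.923-fold (95% interval 0.74 to 1.15) at its brighter probe set. Trib3, a target of ATF4 and CHOP, read 153, 69.6 and 49.8 in Nogo-A KO and 18.4, 17.2 and 196 in wild type at its brighter probe set and was too dim to be tested.

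Of the other genes of the same pathways, none passed an adjusted p of 0.05 in limma. Of 42 tested other chaperones and cochaperones, which are mostly cytosolic but include the mitochondrial Hspa9, Trap1 and Dnaja3 and the microsomal Hspa13, 32 had a log2 change above 0 with a median of 0.078. Of all tested probe sets 51.4% were above 0. The count was 41 with array median scaling and 23 after quantile normalization. At the deposited scaling 1 was higher and 1 lower at an unadjusted p under 0.05. Stub1, the ubiquitin ligase CHIP that works with Hsp70, read 4520.4, 4252 and 4889.9 in Nogo-A KO and 3935, 3337 and 3854 in wild type (unadjusted p = 0.0137, limma adjusted p = 0.591). Hspa4l, the closest relative of Hspa4, read 2437, 2562 and 2670.5 in Nogo-A KO and 3067, 3286 and 2912 in wild type, 0.828-fold (unadjusted p = 0.0169, limma adjusted p = 0.591). The groups overlapped in neither.

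Of 52 tested other ER stress and folding genes, 26 were above 0 with a median of 0.0008, and the count was 48 with array median scaling and 26 after quantile normalization. With the deposited scaling 1 was higher and 1 lower at an unadjusted p under 0.05. Tmbim6, an ER membrane protein that protects from cell death, read 3999.7, 4038 and 4418 in Nogo-A KO and 3694, 2905 and 3402 in wild type, 1.25-fold (unadjusted p = 0.0126 in limma). Erp29, a chaperone of the ER lumen, read 984, 845 and 1026 in Nogo-A KO and 1065, 1309.5 and 1289 in wild type, 0.78-fold (unadjusted p = 0.0208 in limma). Asns, Atf5, Cebpb, Chac1 and Ppp1r15a were counted both among these 52 genes and among 20 tested genes of the ATF4 pathway. Of the 20, which also include Atf4 and Ddit3, 13 were above 0 with a median of 0.059. The count was 18 with array median scaling and 11 after quantile normalization. At an unadjusted p under 0.05, 1 was higher and 1, Sesn2, lower. Slc7a5, an amino acid transporter, read 522, 429.7 and 567 in Nogo-A KO and 408, 403 and 333 in wild type, 1.32-fold without overlap (unadjusted p = 0.0392 in limma). Sesn2, a stress-induced regulator of growth signalling, read 56.9, 49.1 and 133 in Nogo-A KO and 77.2, 366 and 420.0 in wild type, where 2 of 3 wild type arrays were high. It reached the dim-signal filter in wild type alone, so that its difference was a condition of its being tested.

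Probe sets of 1 gene could differ in sign. Of 20 genes with several probe sets that reached the dim-signal filter in both genotypes, 7 had log2 changes on both sides of 0, among them Hspa4, Hspa8 and Hspa5. The dimmer probe set of Edem1, which reached the filter in Nogo-A KO alone, read 186, 229 and 153 in Nogo-A KO and 139, 174 and 91.2 in wild type. With the deposited scaling both probe sets of Hspb1 and of Hsph1 and all 3 of Calr and of Hspb8 had 1 direction within the gene.

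The direction of many small changes followed the scaling of the arrays. Division by each array's median, the step named in the series' design, moved the median of all tested probe sets to 0.23 and that of the 32 genes to 0.22. Under it 6 member probe sets were higher and 1 lower at an unadjusted p under 0.05, or 9.23% and 1.54%, against 11.9% and 1.12% of all. After quantile normalization 2 were higher and 6 lower, or 3.08% and 9.23%, against 3.68% and 2.81% of all. The median of the 32 genes was then -0.077 and that of all tested probe sets 0.019. Median scaling raised every log2 change by the same amount, so that only values below 0 could change sign. At the probe sets that represent the genes, 14 of 32 did so, and 6 changed sign after quantile normalization. Hspb1 and Calr, already above 0, could not turn with median scaling and stayed above 0 after quantile normalization. In limma their unadjusted p was 0.0036 and 0.021 with median scaling, but 0.055 and 0.15 after quantile normalization. Hspa1b, at its representative probe set, and Hspa4 probe set 1435194_at stayed below 0 under both. With median scaling their unadjusted p in limma was 0.14 and 0.016, and after quantile normalization 0.036 and 0.00019.

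**Figure D4:**
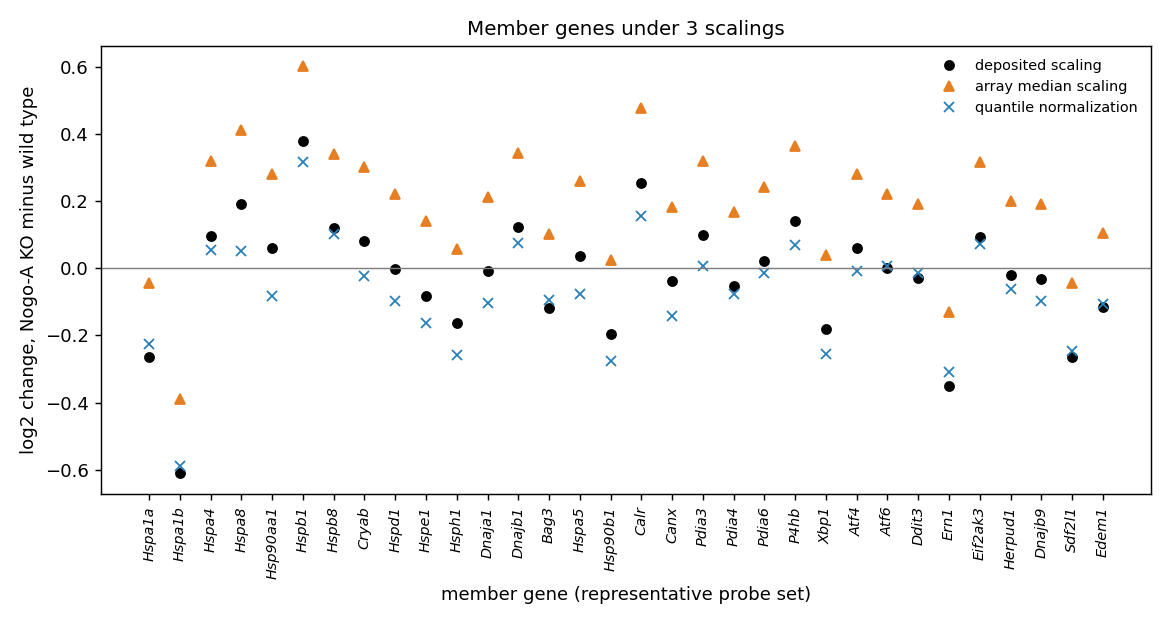
Log2 change, Nogo-A KO minus wild type, of the 32 member genes at their representative probe sets under the deposited scaling, array median scaling and quantile normalization. Median scaling moves the median of these genes to 0.22, against -0.0057 with the deposited scaling and -0.077 after quantile normalization.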

How the data were processed

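The authors deposited intensities, linear and made with MAS5 in GCOS 1.4 (per the submitters' processing notes). The mean of every array without its lowest and highest 2% was 500, so a common scaling had been applied. That scaling was kept as the main setting. It was chosen with earlier results of these data under several scalings in view, because array medians fell among dim signals that differed between arrays. The series' design names a per-chip median instead, and its counts stand beside the main ones.

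On the log2 scale, Nogo-A KO minus wild type was fitted with limma (version 3.58.1, R 4.3.3; lmFit and eBayes, trend on mean intensity), with Benjamini-Hochberg adjustment over 23546 probe sets at a threshold of 0.05. Left out were 64 control probe sets and those that did not reach their array's 50th percentile on 2 or more of the 3 arrays of either genotype. An exact permutation test of 3 against 3 cannot give a p below 0.1. Precision is limited by the 3 arrays per genotype, each from a separate mouse.

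Symbols came from the platform annotation, updated by gene identifier to RefSeq GRCm38.p6. Members and gene lists were chosen with earlier results of these data known. Every member is named; values per array are given for those with an unadjusted p under 0.05 or no overlap, the 8 smallest p, the central genes of both responses, and listed pathway genes with an unadjusted p under 0.05. Alternatives were other scalings, filters, an offset, models and arrays left out. The methods' t-test on median-scaled values was added after seeing the data. The fitting was tested on simulated data. It recovered 131 of 500 differences of 1.5-fold (26.2%), 174 of 250 of 2-fold (69.6%) and 219 of 250 of 4-fold (87.6%). Recovery of differences under 1.5-fold was not tested.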

Additional observations from a re-analysis of the deposited data

How the results depend on the processing

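With all arrays, 0 member probe sets and 1 of all tested probe sets passed an adjusted p of 0.05 in limma, and 9 member probe sets had an unadjusted p under 0.05, 5 higher and 4 lower in Nogo-A KO. Without single arrays these were 0 to 1 and 0 to 9 at the adjusted threshold, and 1 to 5 higher and 2 to 12 lower. Of all tested probe sets, 390 to 1570 were then higher and 553 to 1715 lower at an unadjusted p, against 1013 and 938 with all arrays. Wild type replicate 3 decided the member count of 1 and of 12 lower, and wild type replicate 1 the 9. Without wild type replicate 3 and Nogo-A KO replicate 2 together, 1 member and 3 of all passed the adjusted threshold, 11 members were lower, and 1670 and 1473 of all were higher and lower. With array median scaling 2 of all passed, 1 member was lower, and 2800 and 263 of all were higher and lower. After quantile normalization 2 members were higher, and 866 and 661 of all were higher and lower. The filter moved the count of all lower probe sets to 2488 without one, 1810 at the 25th percentile and 247 at the 75th. Without the intensity trend 0 of all passed and 3 members were higher. In the methods' t-test 0 of all passed after adjustment, 2 members were higher, and 527 and 609 of all met the fold rule higher and lower. With median scaling, added after seeing the data, that test gave 0 after adjustment, 1963 higher and 216 lower of all, and 0 members lower. The median log2 change of the 32 genes was -0.0057, against 0.22 with array median scaling, -0.077 after quantile normalization, -0.038 with the mean of a gene's probe sets and -0.044 to 0.022 without single arrays.

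With the replicate block 4 of all tested probe sets passed the adjusted threshold and 0 members did. Deviations of same-numbered arrays correlated at -0.034, 0.074 and 0.11, and those of differently numbered ones at -0.12 to 0.080. The labels do not say whether equal numbers mark paired animals, and this was not tested. Sign changes occurred in 59 of 599 values of single member probe sets or, in 1 setting, gene means, none of them with an unadjusted p under 0.05 at the probe set reported with all arrays, and 2 values passed the adjusted threshold, both at Hspa4 probe set 1435194_at. The log2 changes that turned with array median scaling were Hspd1 0.22, Hspe1 0.14, Hsph1 0.057, Dnaja1 0.21, Bag3 0.10, Hsp90b1 0.024, Canx 0.18, Pdia4 0.17, Xbp1 0.040, Atf6 0.22, Ddit3 0.19, Herpud1 0.20, Dnajb9 0.19 and Edem1 0.11. After quantile normalization they were Hsp90aa1 -0.082, Cryab -0.024, Hspa5 -0.076, Pdia6 -0.015, Atf4 -0.0074 and Atf6 0.0066. Without wild type replicate 3 and Nogo-A KO replicate 2 together they were Hspa4 -0.021, Hsp90aa1 -0.0052, Cryab -0.15, Dnaja1 0.014, Bag3 0.096, Hspa5 -0.098, Pdia6 -0.055 and Atf6 0.022. With the mean of a gene's tested probe sets they were Hspa4 -0.25, Hspa8 -0.052, Hsp90aa1 -0.034, Hspa5 -0.16, Atf4 -0.017 and Edem1 0.20. The mean of Edem1 takes in its dimmer probe set, which was tested only because it reached the filter in Nogo-A KO. Over the settings without arrays, the genes that turned without a single one ranged in log2 change as follows, Dnaja1 -0.039 to 0.014, Pdia4 -0.33 to 0.16, Ddit3 -0.21 to 0.12, Herpud1 -0.073 to 0.055, Atf6 -0.021 to 0.023, Hspd1 -0.022 to 0.017, Eif2ak3 -0.038 to 0.19, Dnajb9 -0.21 to 0.060, Atf4 -0.022 to 0.19, Hsp90aa1 -0.0052 to 0.10, Cryab -0.15 to 0.18, Bag3 -0.26 to 0.096, Hspa5 -0.098 to 0.15 and Pdia6 -0.072 to 0.12. The causes of these shifts were not tested. Probe sets that did not reach the dim-signal filter, those of Trib3 among them, were not tested.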
